A study of Homo sapiens with 10 samples.

Results

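MHC class I molecules and the proteins that load peptides onto them were followed as RNA in MV4-11 cells with and without IRF8. The group comprises 9 genes, HLA-B, HLA-C, HLA-E, HLA-F, B2M, TAP1, TAP2, TAPBP and NLRC5, of the 19590 genes in the expression table. They were chosen by name for their function, with earlier results of these data known, and all 9 passed the filter on low values. Their share of the table is small, but their products form the chain by which a cell shows its internal peptides to T cells and natural killer cells.

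MV4-11 is an established human acute myeloid leukaemia line of monocytic type that carries an internal tandem duplication in the receptor kinase FLT3. IRF8 is a transcription factor of the interferon regulatory factor family and directs the development of monocytes and dendritic cells. Bulk RNA was sequenced for 4 control libraries, whose cells had been infected with a control vector, and for 4 IRF8 KO libraries. According to the methods of the study, the IRF8 KO cells had received lentiCRISPRv2 carrying IRF8 gRNAs, were selected with puromycin and were grown as clones from limiting dilution. Which clone gave each library is not stated, and neither is whether the 4 replicates were separate cultures, so the p-values measure only the spread between these libraries. In bulk RNA, fewer cells that express a gene and less RNA per cell cannot be told apart.

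An MHC class I molecule consists of a heavy chain, encoded by an HLA gene, and the invariant light chain β2-microglobulin, encoded by B2M. Peptides made by the proteasome are carried into the endoplasmic reticulum by the TAP1-TAP2 transporter, trimmed by the aminopeptidases ERAP1 and ERAP2, and loaded with the help of tapasin, the product of TAPBP. NLRC5 is the class I transactivator, which binds class I promoters through the RFX, CREB and NF-Y proteins of the SXY module, while interferon acts through interferon-stimulated response elements (ISRE).

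IRF8 itself measured 36891, 15192, 43016 and 22535 normalized counts in control replicates 1 to 4 and 6377, 2401, 12903 and 7820 in IRF8 KO replicates 1 to 4. The groups did not overlap, and the IRF8 KO mean was 25.1% of the control mean (log2 fold change -2.11, SE 0.51, limma adjusted p = 0.022). The IRF8 call was lost without control replicate 1 or 3 or IRF8 KO replicate 1 (limma adjusted p = 0.053 to 0.058) and in replicates 2 and 4 alone (0.058). These values are of RNA, whereas the paper reports from Western blots that the knockout clones lacked IRF8 protein. Normalized counts are reads per gene divided by 1 factor per library. The libraries held 39560072 to 65519047 reads on genes. All 7 myeloid markers examined, among them PTPRC, CD33 and SPI1, were detected, with means of 2718 to 51375 normalized counts. Several of them differed between the groups. MPO was 17.4-fold higher in the IRF8 KO libraries without overlap (767 ± 54.6 against 13378 ± 3888, SD, n = 4 each, limma adjusted p = 9.9e-06), and PTPRC was 2.37-fold higher, also without overlap (limma adjusted p = 0.025). LYZ lay between 1734 and 14757 in the control and between 13767 and 248604 in the IRF8 KO libraries, highest in IRF8 KO replicate 1 (limma adjusted p = 0.060). The erythroid gene HBB was at 0 in all 8 libraries, and the 4 T cell markers had means of at most 6.24. Of the epithelial markers, KRT19 was at 0 and EPCAM had a control mean of 1.17 ± 0.86 (SD, n = 4) and was at 0 in the IRF8 KO libraries, but KRT8 and KRT18 were present, at 1997 ± 1150 and 492 ± 37.3 in the control against 173 ± 80.0 and 6.60 ± 2.50 in the IRF8 KO libraries (SD, n = 4 each). The libraries also differed by chromosome, since the 351 tested genes of chromosome 20 had a median log2 fold change of -0.92, against 0.04 for the 661 of chromosome 6, -0.03 for the 425 of chromosome 15 and -0.02 for the 635 of chromosome 16, where the members lie. Whether these features play a part in the values of the members was not tested.

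The upstream sequences of 4 members are shown because they span the range of outcomes: B2M and TAPBP were higher in the IRF8 KO libraries, and HLA-B and HLA-C were not called. Each is the 250 bases before the annotated start in RefSeq, build GRCh38.p14, 5′ to 3′ on the strand of the gene. Capitals mark matches on either strand to GAAANNGAA (the core of an ISRE), GGAANNGAA (a joint site for ETS and IRF factors), TGACG (the core of a CRE or X2 box), ATTGG (an inverted CCAAT or Y box) and GGGANTNCC (NF-κB, enhancer A). B2M lies on the plus strand at chr15:44711267-44711516, and the other genes on the minus strand, TAPBP at chr6:33314079-33314328, HLA-B at chr6:31357180-31357429 and HLA-C at chr6:31272093-31272342.
B2M: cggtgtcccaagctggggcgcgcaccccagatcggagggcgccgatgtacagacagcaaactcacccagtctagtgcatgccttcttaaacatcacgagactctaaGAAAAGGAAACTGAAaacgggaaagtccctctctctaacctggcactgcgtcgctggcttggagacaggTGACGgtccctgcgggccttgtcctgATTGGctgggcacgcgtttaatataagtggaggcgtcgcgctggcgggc
TAPBP: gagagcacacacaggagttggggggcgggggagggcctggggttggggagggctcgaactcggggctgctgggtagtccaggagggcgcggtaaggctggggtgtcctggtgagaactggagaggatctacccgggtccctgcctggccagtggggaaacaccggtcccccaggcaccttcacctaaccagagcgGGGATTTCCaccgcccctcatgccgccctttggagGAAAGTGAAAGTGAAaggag
HLA-B: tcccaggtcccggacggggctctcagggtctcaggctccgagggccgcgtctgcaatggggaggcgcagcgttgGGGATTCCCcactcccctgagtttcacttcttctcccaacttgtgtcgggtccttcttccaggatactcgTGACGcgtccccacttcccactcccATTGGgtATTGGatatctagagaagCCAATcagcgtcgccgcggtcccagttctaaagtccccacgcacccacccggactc
HLA-C: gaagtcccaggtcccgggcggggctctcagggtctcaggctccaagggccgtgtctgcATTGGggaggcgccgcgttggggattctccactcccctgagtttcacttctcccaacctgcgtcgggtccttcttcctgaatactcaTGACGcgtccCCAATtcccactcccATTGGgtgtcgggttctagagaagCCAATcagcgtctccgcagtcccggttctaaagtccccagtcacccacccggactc

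The B2M window held 2 overlapping matches to the ISRE core, between 144 and 130 bases before the start, followed by TGACG at 75 and ATTGG at 49. The TAPBP window held 2 overlapping ISRE core matches between 20 and 6 bases before the start and an NF-κB match at 55. HLA-B and HLA-C had no ISRE core match in these windows, but each had TGACG, at 106 and 105 bases before the start, and several ATTGG matches. A site that departs from the exact letters was not counted, so a lack of match does not mean a lack of an ISRE. The NF-κB match of HLA-B, at 176, reads the same on both strands. Windows were matched for 7 of the 9 members, all but HLA-E and NLRC5.

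Among these 7, the ISRE core was found in 5 (HLA-F, TAP1, TAP2, TAPBP and B2M), against 6.88% of all 35116 windows of that length. Of these 5, HLA-F, TAP1 and TAP2 were not called in the comparison below. TGACG was found in 4 members, HLA-B, HLA-C, TAP2 and B2M, and in 21.2% of all windows. ATTGG was found in 5, HLA-B, HLA-C, HLA-F, TAP1 and B2M, and in 11240 of the 35116 windows. The NF-κB letters were found in HLA-B and TAPBP and in 3.75% of windows. The ETS-IRF letters were found in TAP2 alone, where they overlap its ISRE core, and in 6.58% of windows. TAP1 has 2 annotated starts, and the matches lie before the first. These are matches of letters, not measured binding.

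The question of the comparison was which genes of class I presentation differ in RNA when IRF8 is lost. The limma fit used log2(normalized count + 1) of the 13110 genes whose mean over the 8 libraries reached 10, and a gene was called at a Benjamini-Hochberg adjusted p below 0.05 over all of these genes. Of the 9 members, 2 were called higher in the IRF8 KO libraries, B2M and TAPBP, and 0 were called lower. Of all tested genes, 18.2% were called, 8.65% higher and 9.56% lower. The count of called members is near the share called in either direction, and its excess over the share called higher rests on 2 genes. The thresholds in the methods of the study are a difference of 2-fold or more at a p below 0.01 before adjustment. At these thresholds 0 members passed by limma, against 10.9% of tested genes. By edgeR or DESeq2 on the recovered reads 1 member (B2M) passed, but the share of all genes was not taken for those fits. The groups did not overlap in 2 members, again B2M and TAPBP, against 25.3% of tested genes. The median log2 fold change of the members was 0.08, with 5 positive and 4 negative, while the median of all tested genes was -0.00.

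No heavy chain gene was called. HLA-B, a classical heavy chain that presents peptides to cytotoxic T cells, measured 35575, 54341, 35579 and 62014 normalized counts in control replicates 1 to 4 and 15183, 61316, 26679 and 40977 in the IRF8 KO replicates. The groups overlapped, with the IRF8 KO libraries spread over a 4.04-fold range and the control libraries over a 1.74-fold range. The mean was 46877 ± 13419 (SD, n = 4) in control and 36039 ± 19882 (SD, n = 4) in the IRF8 KO libraries, a log2 fold change of -0.52 with an SE of 0.40 (limma adjusted p = 0.44). HLA-C, the other classical heavy chain gene of the group and also a ligand of killer cell receptors, measured 9020, 13584, 8436 and 14533 in the control and 6747, 17416, 9039 and 12343 in the IRF8 KO libraries. Its means were nearly the same, 11394 ± 3111 and 11386 ± 4630 (SD, n = 4 each), and the log2 fold change was -0.05 (SE 0.31, limma adjusted p = 0.94).

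HLA-E, a nonclassical heavy chain that displays leader peptides of other class I chains to the receptor CD94-NKG2A, measured 15452, 24265, 14253 and 24396 normalized counts in control replicates 1 to 4. The IRF8 KO replicates measured 10882, 17884, 12985 and 15889. Each IRF8 KO library lay below the control library of the same number, in 4 of 4 cases, although the groups overlapped. The labels do not say that equal numbers mark paired libraries, so results with the replicate number as a block, here and below, assume it. The log2 fold change of -0.42 (SE 0.23) did not pass limma (adjusted p = 0.25), but it did with the replicate number as a block (SE 0.11, adjusted p = 0.028). The difference also passed with a covariate for replicates 1 and 3 against 2 and 4 (SE 0.10, limma adjusted p = 0.010). HLA-E was the one member whose call changed with the block or with this covariate.

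HLA-F, a nonclassical heavy chain, was measured at 298, 452, 256 and 543 normalized counts in the control and at 102, 541, 383 and 452 in the IRF8 KO libraries. The spread among the IRF8 KO libraries exceeded the difference between the means of 387 ± 134 and 370 ± 189 (SD, n = 4 each). Its log2 fold change was -0.24 (SE 0.51, limma adjusted p = 0.81), and 0.29 without IRF8 KO replicate 1. HLA-F shares its locus with an antisense gene, and the strand setting of the counting was not given. Reads of the HLA genes can also match near-identical copies, and how such reads were counted was not given either, so the values of single heavy chain genes are uncertain.

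B2M, the light chain shared by all class I molecules, was the member with the largest change. It measured 35224, 38972, 35231 and 44283 normalized counts in control replicates 1 to 4 and 69927, 107954, 58173 and 73819 in IRF8 KO replicates 1 to 4. Every IRF8 KO library lay above every control library. The mean rose from 38427 ± 4284 to 77468 ± 21384 (SD, n = 4 each), a 2.02-fold difference and a log2 fold change of 0.98 (SE 0.19, limma adjusted p = 0.0077). The exact two-sided permutation test gave p = 0.0286, the smallest value that 4 against 4 libraries allow. Groups without overlap always reach this permutation p, and after Benjamini-Hochberg adjustment over the 9 members it was 0.129. With each library left out in turn, the log2 fold change was between 0.81 and 1.11 and the limma adjusted p between 0.0068 and 0.025.

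TAP1 and TAP2 encode the subunits of the peptide transporter. TAP1 measured 1915, 1883, 1636 and 2252 normalized counts in the control and 1477, 2630, 2688 and 2976 in the IRF8 KO libraries. IRF8 KO replicate 1 was the lowest of all 8, while the other three were above every control library. The log2 fold change was 0.31 (SE 0.22, limma adjusted p = 0.40) with all libraries and 0.53 (SE 0.14, limma adjusted p = 0.044) without that replicate. TAP2 measured 9173, 6344, 8421 and 7337 in the control and 7746, 11134, 9892 and 12753 in the IRF8 KO libraries. The groups overlapped only through IRF8 KO replicate 1, and the log2 fold change was 0.40 (SE 0.18, limma adjusted p = 0.17). It differed by replicate number, at -0.01 in replicates 1 and 3 and 0.80 in replicates 2 and 4 (limma adjusted p = 0.016 in the latter).

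TAPBP, which encodes the chaperone tapasin that bridges TAP and empty class I molecules, measured 12397, 8593, 11946 and 8898 normalized counts in the control. In the IRF8 KO libraries it measured 16361, 16606, 13058 and 15281. The groups did not overlap, and the nearest libraries were control replicate 1 and IRF8 KO replicate 3. TAPBP rose from 10458 ± 1991 to 15327 ± 1618 (SD, n = 4 each), 1.47-fold, with a log2 fold change of 0.56 (SE 0.16, limma adjusted p = 0.038). Its exact permutation p was 0.0286, and 0.129 after Benjamini-Hochberg adjustment over the 9 members. The limma call of TAPBP was less stable than that of B2M. It was lost without control replicate 2 or 4 or IRF8 KO replicate 1, 2 or 4 (limma adjusted p = 0.080 to 0.0998), and the log2 fold change was 0.26 in replicates 1 and 3 (limma adjusted p = 0.25) against 0.87 in replicates 2 and 4.

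NLRC5, the transactivator of the class I genes, measured 3000, 2348, 2832 and 2786 normalized counts in the control libraries and 1964, 3089, 3166 and 3653 in the IRF8 KO libraries. IRF8 KO replicate 1 was again the lowest library and the other three were the highest. The means were 2741 ± 278 and 2968 ± 714 (SD, n = 4 each), with a log2 fold change of 0.08 (SE 0.19, limma adjusted p = 0.82).

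**Figure D1:**
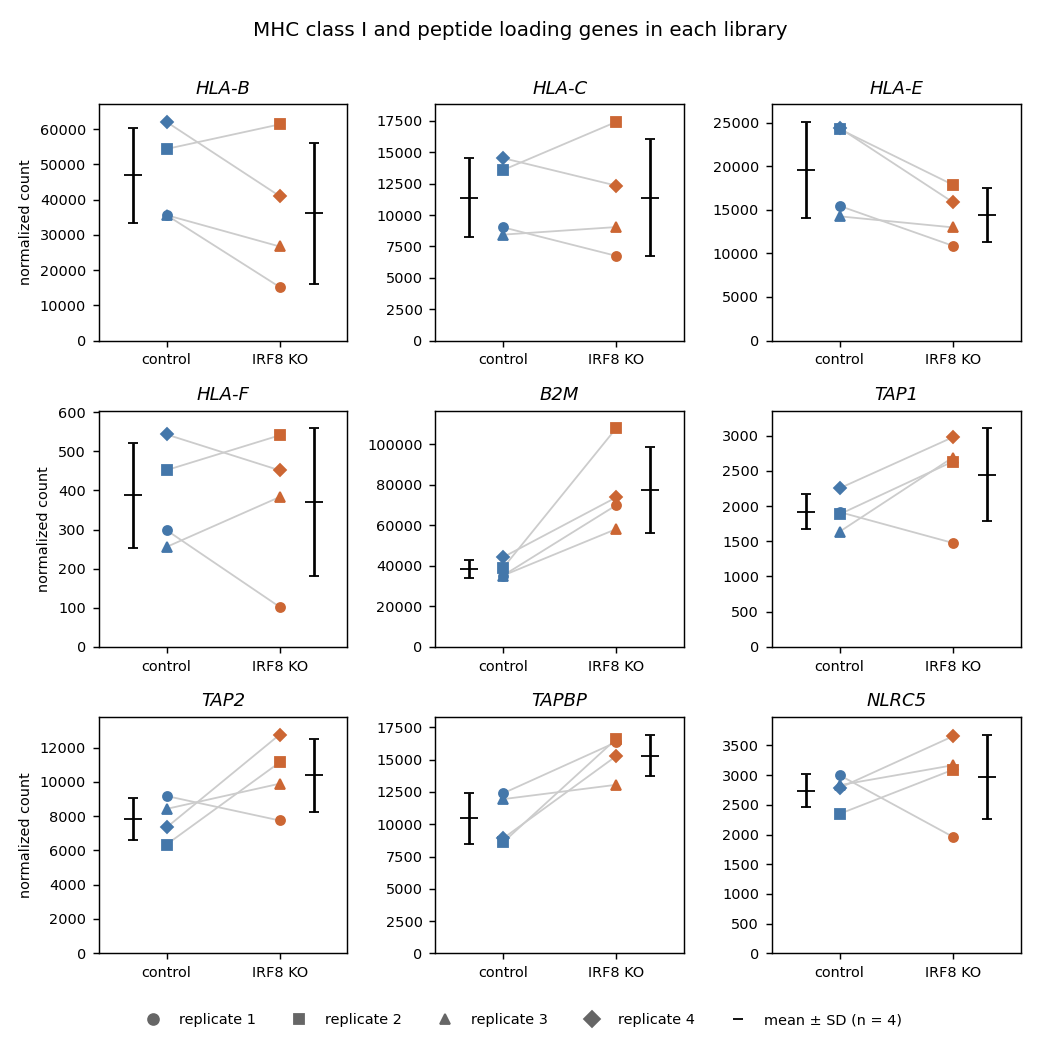
Normalized counts of the 9 members in each library, 1 panel per gene with its own linear axis from 0, points for the 4 control and 4 IRF8 KO libraries, bars for mean and SD, and grey lines joining libraries of the same number. In B2M and TAPBP the IRF8 KO points all lie above the control points, while in the 4 heavy chain genes the groups overlap.

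The order of the libraries was shared between members. IRF8 KO replicate 1 was the lowest of the 8 libraries in 6 of the 9 members (HLA-B, HLA-C, HLA-E, HLA-F, TAP1 and NLRC5), against 14.4% of all tested genes. Without that library the called members were B2M and TAP1. In the 4 heavy chain genes and B2M, replicates 2 and 4 lay above replicates 1 and 3 in both groups, an order found in 18.9% of tested genes, while the reverse order was found in 19.3% of tested genes and in 0 members. The labels do not say what the replicate number stands for.

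**Figure D2:**
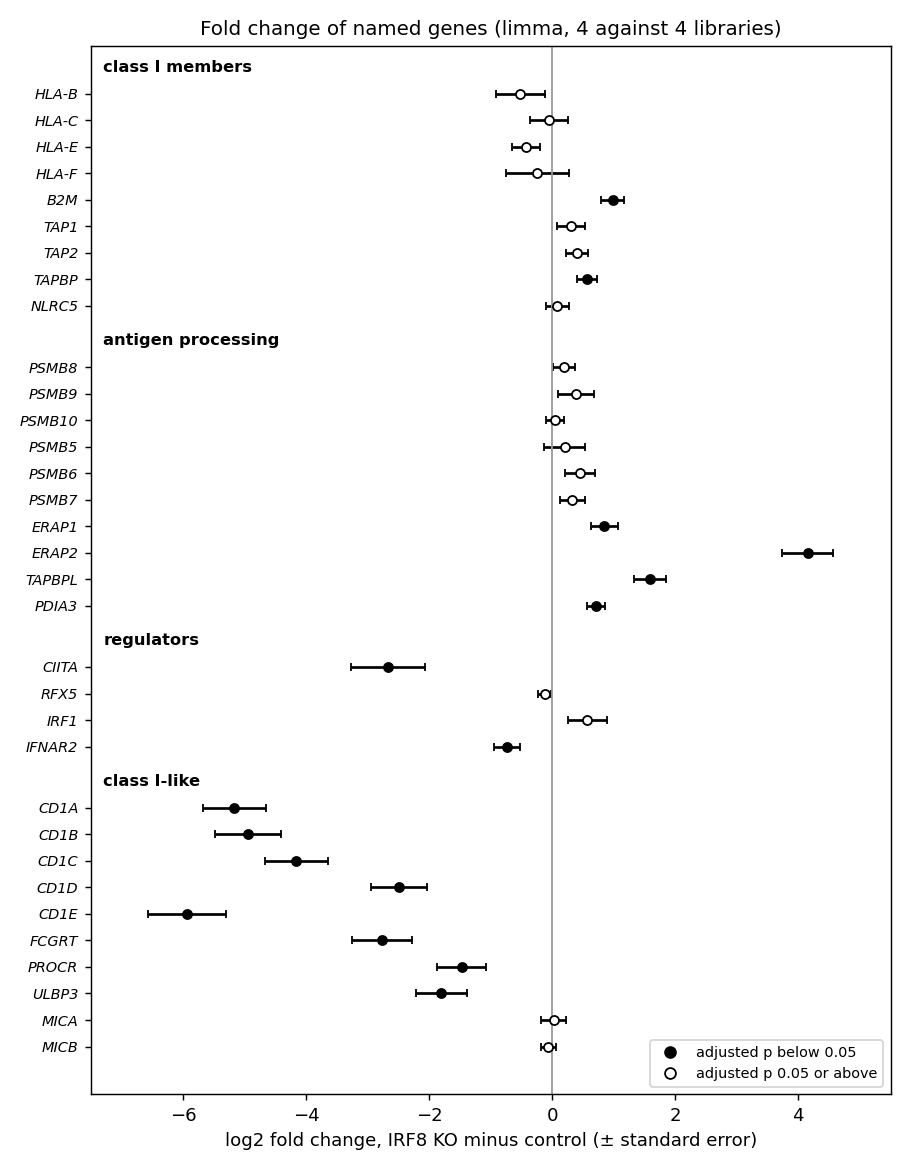
Log2 fold change (IRF8 KO minus control, horizontal axis) of the 9 members and of named antigen processing, regulator and class I-like genes, with error bars for the SE of the limma fit and filled points for an adjusted p below 0.05. B2M at 0.98 and TAPBP at 0.56 are the filled members, and the CD1 genes and FCGRT lie to the left, at -2.49 or lower.

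Because heavy and light chain join 1 to 1 in a class I molecule, the ratio of their RNAs was compared within each library, which does not depend on the library's factor. The log2 ratio of HLA-B to B2M was 0.01, 0.48, 0.01 and 0.49 in control replicates 1 to 4 and -2.20, -0.82, -1.12 and -0.85 in the IRF8 KO replicates. It was lower in each IRF8 KO library than in any control library, on average 2.82-fold, and the log2 difference was between -1.64 and -1.18 with each library left out. The ratio to B2M was also lower without overlap for HLA-E (2.65-fold), HLA-F (2.33-fold) and HLA-C (2.04-fold). For HLA-F the log2 difference of -1.22 was -0.72 without IRF8 KO replicate 1. The share of HLA-B against HLA-C moved too, 1.38-fold lower, from a log2 ratio of 2.04 ± 0.06 to 1.57 ± 0.29 (SD, n = 4 each). Each of these 5 ratios had an exact two-sided permutation p of 0.0286, which was 0.0686 after adjustment over the 12 ratios compared, so that 0 of 12 passed. With 4 libraries a group, the adjusted value could not have been lower for 5 ratios. All 4 ratios to B2M share its values and are not independent of each other.

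The other 7 ratios overlapped between the groups. TAP1 to TAP2 differed by -0.09 on the log2 scale (exact permutation p = 0.686), and tapasin to TAP1 by 0.26 (exact permutation p = 0.514). NLRC5 against HLA-B was 0.60 higher (exact permutation p = 0.171). For the subunits of the immunoproteasome against the constitutive subunits they replace, the differences were -0.01 for PSMB8 to PSMB5, -0.06 for PSMB9 to PSMB6 and -0.29 for PSMB10 to PSMB7, with exact permutation p of 0.971, 0.886 and 0.171.

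**Figure D3:**
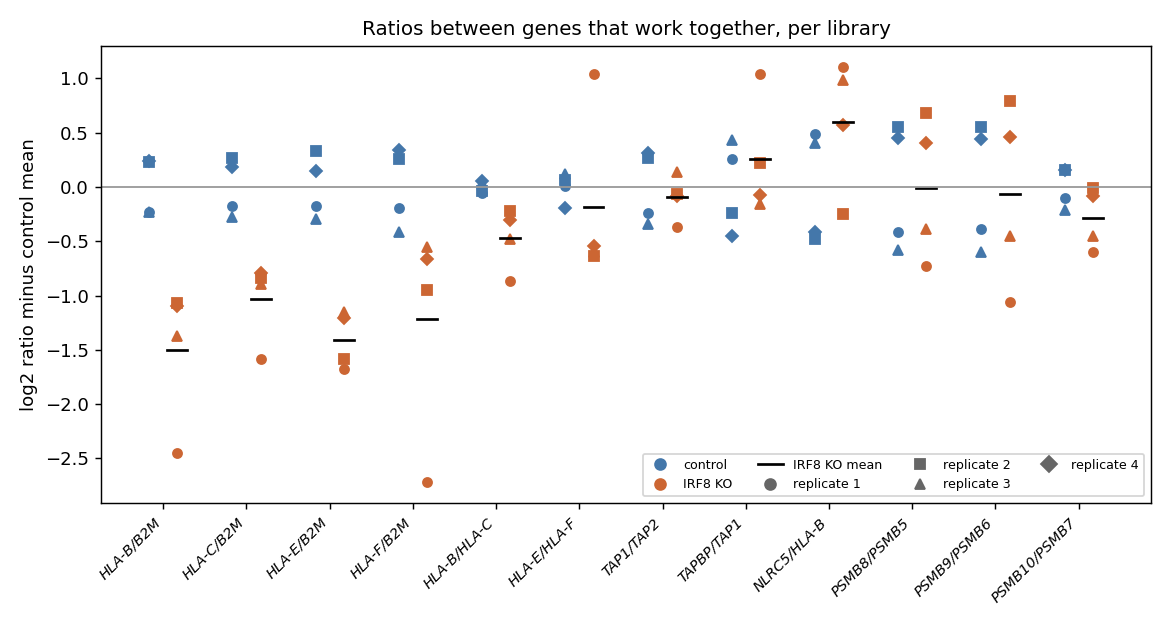
Log2 ratio of 12 gene pairs in each library, minus the control mean of that ratio (vertical axis), with points for the 4 control and 4 IRF8 KO libraries, shapes for the replicate numbers and a bar for the IRF8 KO mean. The ratios of the 4 heavy chain genes to B2M lie lower in every IRF8 KO library than in any control library.

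The steps before and during loading were examined with 22 further genes of antigen processing. All 22 were tested, and 4 were called higher and 0 lower. A positive log2 fold change was found in 20, against 6546 of all 13110 tested genes, and the median was 0.31. The background is 8.65% called higher and 18.2% called in either direction. The 4 of 22 lie near the share called in either direction and above the share called higher, a difference that was not tested. With the replicate number as a block, 8 of the 22 were called, against 28.7% of all tested genes. ERAP2, an aminopeptidase that trims peptides in the endoplasmic reticulum, measured 140, 414, 104 and 310 normalized counts in the control and 2848, 3702, 3809 and 4748 in the IRF8 KO libraries. No library came near the other group, and ERAP2 rose 15.6-fold (log2 fold change 4.15, SE 0.42, limma adjusted p = 3.6e-04). ERAP1, the related aminopeptidase, measured 1978, 2685, 2014 and 2832 in the control and 3691, 5160, 3036 and 5529 in the IRF8 KO libraries, a 1.83-fold rise (log2 fold change 0.85, SE 0.22, limma adjusted p = 0.029). The ERAP1 call was lost without control replicate 1 or 3 or IRF8 KO replicate 2 or 4 (limma adjusted p = 0.064 to 0.078).

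The remaining called genes of this list were TAPBPL and PDIA3. TAPBPL encodes TAPBPR, a tapasin relative that edits peptides outside the complex, and measured 499, 653, 465 and 615 normalized counts in the control against 1470, 2769, 1178 and 1608 in the IRF8 KO libraries. It rose 3.15-fold without overlap (log2 fold change 1.59, SE 0.26, limma adjusted p = 0.0036). PDIA3, the disulfide isomerase ERp57 that pairs with tapasin, measured 32031, 27487, 31218 and 28114 in the control against 59185, 52757, 43752 and 40526 in the IRF8 KO libraries. It rose 1.65-fold (log2 fold change 0.71, SE 0.14, limma adjusted p = 0.0087), also without overlap.

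The proteasome subunits were not called. The immunoproteasome subunits PSMB8, PSMB9 and PSMB10 had log2 fold changes of 0.19, 0.38 and 0.04 (limma adjusted p = 0.53, 0.43 and 0.89). PSMB9 starts 487 bases from TAP1 on the opposite strand and, like TAP1, passed once IRF8 KO replicate 1 was left out (log2 fold change 0.70, limma adjusted p = 0.023). The constitutive subunits PSMB5, PSMB6 and PSMB7 had log2 fold changes of 0.20, 0.45 and 0.33 (limma adjusted p = 0.74, 0.26 and 0.31), of which PSMB6 passed with the replicate block (adjusted p = 0.028).

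**Figure D4:**
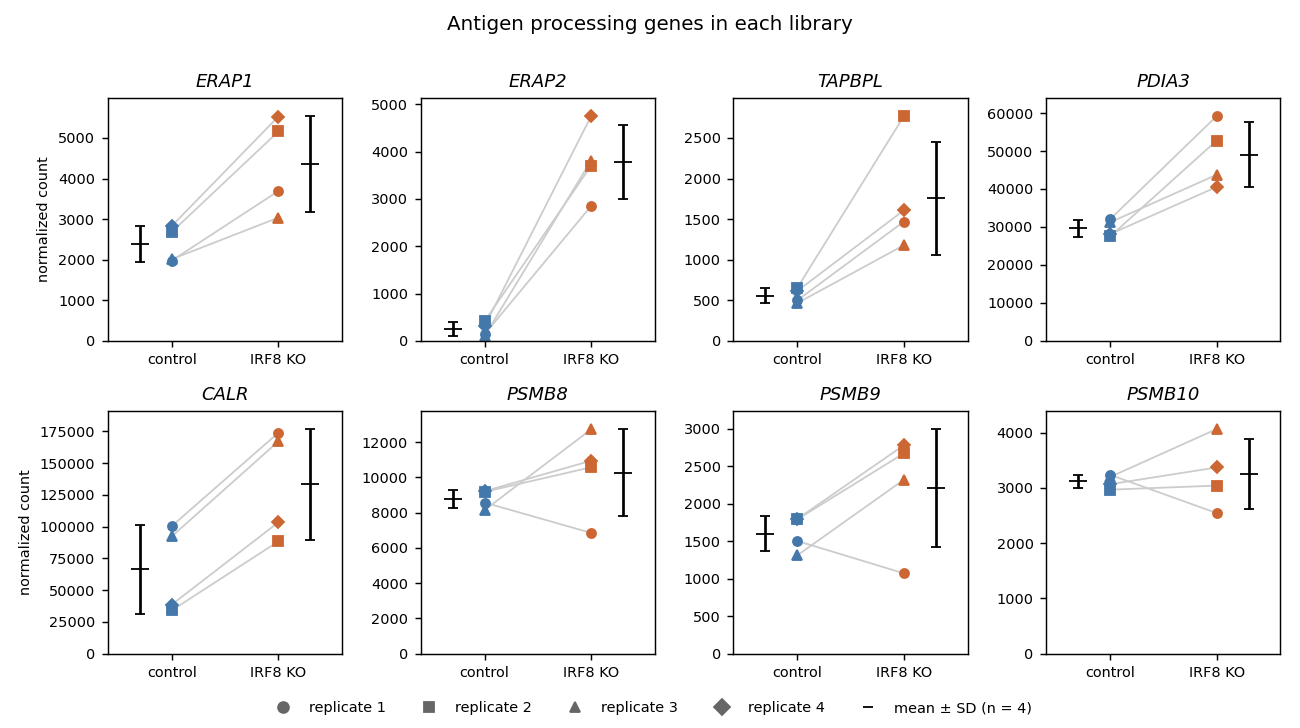
Normalized counts of antigen processing genes in each library, 1 panel per gene with its own linear axis from 0, points for control and IRF8 KO libraries, bars for mean and SD, and lines joining libraries of the same number; CALR was added after its values were seen. ERAP2, TAPBPL, ERAP1 and PDIA3 are higher in every IRF8 KO library than in any control library.

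Regulators of class I transcription formed a list of 25 genes, all tested, of which 0 were called higher and 2 lower, with a median log2 fold change of -0.09, and 7 were called with the replicate block. The shares of all tested genes called were 18.2% and 28.7% in these fits, so neither count exceeds the background. CIITA, the class II transactivator and a relative of NLRC5, measured 2013, 2009, 1962 and 1889 normalized counts in the control and 135, 1297, 195 and 259 in the IRF8 KO libraries. It fell in all 4, least in IRF8 KO replicate 2 (log2 fold change -2.68, SE 0.60, limma adjusted p = 0.016). The CIITA call was lost with edgeR (adjusted p = 0.064) and without IRF8 KO replicate 3 (limma adjusted p = 0.0503). It was also lost in replicates 2 and 4 alone (log2 fold change -1.75, limma adjusted p = 0.15). IFNAR2, a chain of the type I interferon receptor, fell from 1776 ± 436 to 1055 ± 213 (SD, n = 4 each, limma adjusted p = 0.044), a call lost when control replicate 1, 3 or 4 or IRF8 KO replicate 2, 3 or 4 was left out (limma adjusted p up to 0.116).

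RFX5, the DNA-binding subunit of the RFX complex, had a log2 fold change of -0.12 (limma adjusted p = 0.47). IRF1, an activator of class I genes in the interferon response, had one of 0.57 (limma adjusted p = 0.26, and 0.048 with the replicate block).

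Among the genes of class I-like molecules, those called were lower in the IRF8 KO libraries. Of 19 listed, 16 passed the filter (HFE, RAET1E and AZGP1 did not). Of the 16, 8 were called lower and 0 higher, against 9.56% of all tested genes called lower, and the median log2 fold change was -0.85. CD1A, which presents lipids to T cells, measured 606, 243, 450 and 272 normalized counts in the control and 3.20, 18.2, 8.13 and 13.8 in the IRF8 KO libraries. Its log2 fold change was -5.17 (SE 0.51, limma adjusted p = 3.4e-04), and the related CD1B, CD1C and CD1E had log2 fold changes of -4.94, -4.16 and -5.94. CD1B was at 0 in 2 of the 4 IRF8 KO libraries and at 2.87 and 0.98 normalized counts in the others, so its fold change rests on few reads. CD1D, which presents lipids to natural killer T cells, fell less, from 733 ± 238 to 146 ± 97.9 (SD, n = 4 each, log2 fold change -2.49).

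FCGRT encodes the heavy chain of the neonatal Fc receptor, which also pairs with B2M. It measured 1207, 618, 1565 and 807 normalized counts in the control and 389, 91.8, 127 and 93.5 in the IRF8 KO libraries, and fell by 2.77 on the log2 scale (SE 0.49, limma adjusted p = 0.0054). ULBP3, a ligand of the killer cell receptor NKG2D, fell from 240 ± 38.6 to 76.7 ± 42.9 (SD, n = 4 each, limma adjusted p = 0.017), whereas MICA and MICB, further NKG2D ligands, had log2 fold changes of 0.02 and -0.06 (limma adjusted p = 0.96 and 0.79). PROCR, a protein C receptor of class I-like fold, had a log2 fold change of -1.47 (limma adjusted p = 0.032), lost without control replicate 1 or 3 or IRF8 KO replicate 1 (limma adjusted p = 0.059 to 0.084). In replicates 2 and 4 alone, the limma adjusted p was 0.091 for ULBP3 and 0.090 for PROCR. PROCR lies on chromosome 20, whose tested genes had the median of -0.92 given above.

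**Figure D5:**
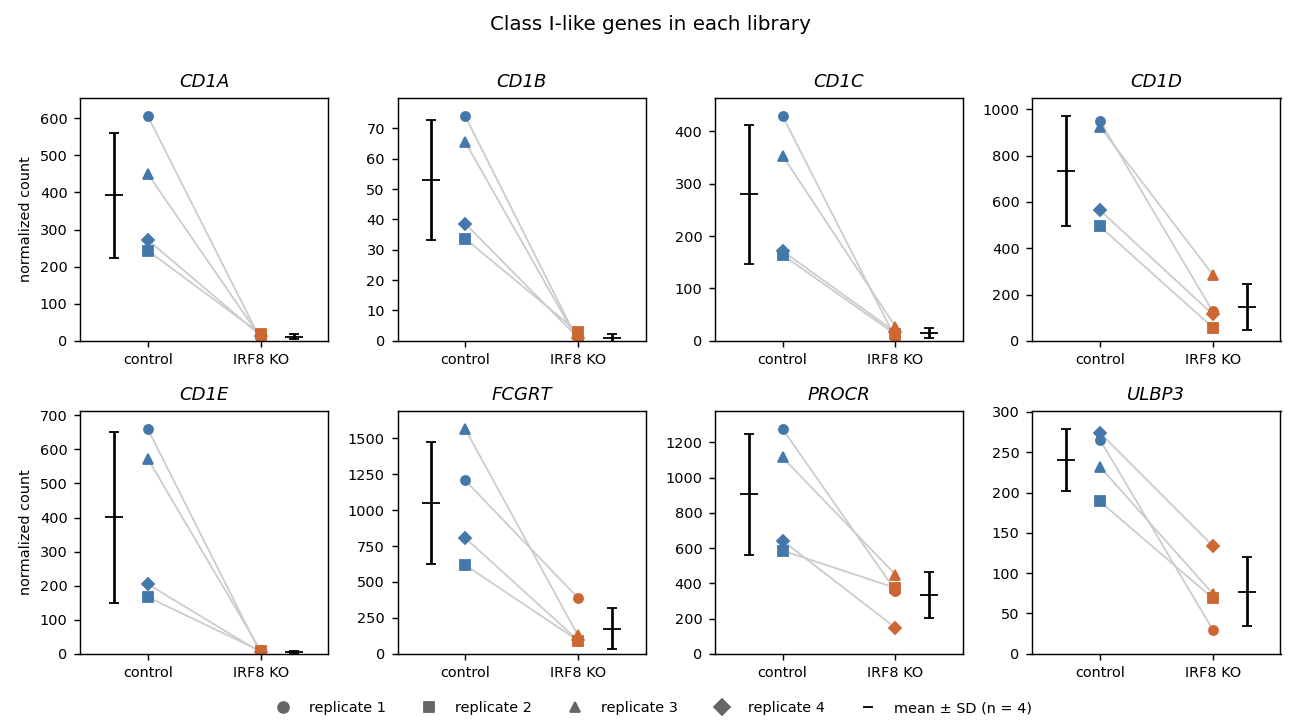
Normalized counts of the 8 called class I-like genes in each library, 1 panel per gene with its own linear axis from 0, points for control and IRF8 KO libraries, bars for mean and SD, and lines joining libraries of the same number. The CD1 genes and FCGRT are lower in every IRF8 KO library than in any control library.

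Of the 9 members, 7 lie in the MHC region of chromosome 6, taken from HLA-F to TAPBP, while B2M lies on chromosome 15 and NLRC5 on chromosome 16. Among the 103 other tested genes of the region, the median log2 fold change was -0.09, and 4 were called higher and 19 lower. The 11 class II genes among them had a median of -2.04, with 7 called lower, and the 92 others had one of -0.06, with 4 called higher and 12 lower. The 551 tested genes of chromosome 6 outside the region had a median of 0.07.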

How the data were processed

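The authors aligned the RNA-Seq reads with RNA-Star to GENCODE, counted them per gene with featureCounts and normalized them with DESeq2. For RNA-Seq, the sources used here do not give the genome build. The deposited signal is the read count divided by 1 size factor per library, for 19590 genes. The value of 1 read was found from the lowest values, which made 100% of the values whole within 0.01 reads, and edgeR on these reads called 2370 genes. The 4 columns named as wild type were assigned to control replicates by their number, and 0 columns were left out. The authors' table of the comparison (means, fold changes, Wald scores and p-values) and the ChIP-Seq samples were not used here.

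The comparison was fitted on log2(normalized count + 1) with limma 3.58.1 (R 4.3.3), with a trended, robust prior variance, for genes with a mean of at least 10, and was tested on simulated data. On this scale the changes of weakly expressed genes are understated. Single values and ratios were compared with exact two-sided permutation tests. Alternatives were pseudocounts of 0.5 and 5, no filter or a mean of at least 100, upper quartile and quantile scaling, edgeR 4.0.16, DESeq2 1.42.0, no trend, library weights, a replicate block, a covariate for replicates 1 and 3 against 2 and 4, either of these sets alone, and leaving out each library.

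The deviations of same-numbered control and IRF8 KO libraries from their group means correlated at 0.37, 0.48, 0.45 and 0.50 across genes. The numbers were taken to pair the libraries, although replicates 1 and 3, and 2 and 4, also deviated together. Control replicate 1 with IRF8 KO replicate 3 reached 0.47, and control replicate 3 with IRF8 KO replicate 1 reached 0.41. Control replicate 4 with IRF8 KO replicate 2 reached 0.41, and control replicate 2 with IRF8 KO replicate 4 reached 0.40. Pairing by number within these sets is therefore not settled by the correlations. No library was a copy of another, the closest being control replicates 1 and 3 (chi-square of 7.12 per degree of freedom). Positions and upstream windows came from RefSeq, GRCh38.p14, where 12992 of the 13110 tested genes had a position.

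The members and lists were chosen with earlier results of these data known. The text names IRF8, all members, PSMB5 to PSMB10, at most 8 called genes of each list by size of log2 fold change, and RFX5, CIITA, IRF1, MICA and MICB whatever their values. A further gene of this rule and a marker are not reported here. Genes outside this rule are named as markers, as untested or as chosen after their values were seen.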

Additional observations from a re-analysis of the deposited data

Results flagged for a closer look

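In 70 groups of 4 libraries, for the genes named by the rule, the highest and lowest library were compared with the rest by Dixon's ratio of gap to range. On normalized counts, 2 groups held a library that stood apart, and on the log2 scale 0 did, while chance alone marks about 1 group in 20. CIITA in IRF8 KO replicate 2, at 1297 normalized counts, lay above the other IRF8 KO libraries (ratio 0.894). FCGRT in IRF8 KO replicate 1, at 389 normalized counts, did so too (ratio 0.88). Both values were below those of every control library.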

How the results depend on the processing

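The count of 2 called members was 1 without the trend and in replicates 1 and 3 alone, 4 in replicates 2 and 4 alone, and 1 to 2 with each library left out. The count at the thresholds of the study, 0, was 1 with edgeR, DESeq2, library weights and replicates 2 and 4 alone, and 0 to 1 with each library left out. Over all 13110 tested genes, 2387 were called, 2311 without the trend, 3402 with DESeq2, 2870 with library weights and 3769 with the replicate block. The count was 4333 with the covariate, 2746 in replicates 1 and 3 alone and 2285 in replicates 2 and 4 alone. With each library left out it was 1665 to 2442. The 4 called antigen processing genes became 8 with DESeq2, with the replicate block and in replicates 2 and 4 alone, 10 with the covariate, and 3 to 5 with each library left out. The 2 called regulators became 6 with DESeq2, 1 without the trend, 4 with library weights, 7 with the replicate block, 10 with the covariate, 5 in replicates 1 and 3 alone, and 0 to 3 with each library left out. The 8 called class I-like genes ranged from 7 to 9 with each library left out. The cause of these changes was not tested. These counts cover the named genes under all alternatives and the ratios with each library left out. Among them 32 values lost a call, 15 gained one and 818 did neither, and no called value changed sign. The replicate block changed the call of HLA-E alone among the members. With a library left out, the ratios were compared by their log2 difference only, so their part of the 818 does not count calls that were kept.

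With 4 libraries a group and no record of clones or cultures, only the spread between these libraries is measured. The members were sequenced deeply, so counting error is small beside that spread, except in genes near the filter of 10 normalized counts.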

Other observations

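A few genes outside the naming rule were chosen after their values were seen. CALR, which encodes calreticulin, the chaperone that holds class I heavy chains in the loading complex, measured 100407, 34129, 92318 and 38672 normalized counts in control replicates 1 to 4 and 173799, 88322, 166993 and 103358 in IRF8 KO replicates 1 to 4. Each IRF8 KO library was above the control library of its number, and replicates 1 and 3 were above 2 and 4 in both groups, the reverse of the order seen in the heavy chain genes. Its log2 fold change of 1.11 (SE 0.40) had a limma adjusted p of 0.094, and 0.0016 with the replicate block. MR1, which presents vitamin metabolites to mucosal-associated invariant T cells and pairs with B2M, measured 1982, 4057, 1881 and 3487 in the control and 5084, 5270, 4071 and 5167 in the IRF8 KO libraries. Its groups did not overlap (log2 fold change 0.85, limma adjusted p = 0.052, and 0.011 with the replicate block), and its direction was opposite to that of the CD1 genes.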
